A study of Mus musculus with 2 samples.

Results

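The genes described here are 50 genes of the LIF, Wnt, FGF and BMP/Nodal pathways, which are known for their part in embryonic stem (ES) cell self-renewal and were listed by name. They make up 50 of the 22359 protein-coding genes with an annotated transcription start site (TSS), with 6 genes of the LIF pathway, 18 of Wnt, 10 of FGF and 16 of BMP/Nodal. Chromatin was taken from E14 cells, a line of mouse ES cells for which the labels give the strain C57BL/6, grown in serum with LIF, and was immunoprecipitated with the anti-ZNF322 antibody sc-102205 (Zfp322a ChIP) or, for the control, with anti-rabbit IgG sc-2027. No library of cells lacking Zfp322a was analysed here, and the specificity of the antibody was not examined in these files. One library was sequenced per antibody on the Genome Analyzer IIx, so that every p-value compares 2 libraries and not conditions, has no replicate check, and rests on counting error only. The libraries held 5187475 (Zfp322a) and 4843481 (IgG) mapped reads, of which 4151151 (80.02%) and 3877802 (80.06%) had a mapping quality score of at least 25, meaning that the read was placed at one position with little doubt. Genomic reads carry no expression, so the cell type of the label could not be checked against its markers.

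LIF binds the paired receptor of Lifr and Il6st, and the kinase Jak1 then activates the transcription factor Stat3, which holds mouse ES cells in self-renewal in serum culture. Wnt ligands act through Frizzled receptors and Dishevelled proteins on a destruction complex of Axin, Apc and Gsk3, which otherwise marks β-catenin for degradation. FGF4 made by the ES cells drives the Ras, Mek and Erk cascade, which prepares them for differentiation. BMP and Nodal act through Smad proteins, with Id genes and Lefty genes among their targets.

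Reads were counted by their 5′ end from -1000 to +1000 bp of each TSS (mm9, GENCODE vM1), and each gene was represented by the TSS window with the most reads of both libraries together. The fold is the number of Zfp322a reads per library total divided by the number of IgG reads per library total, with an exact 95% interval for counting error. A gene was called higher or lower in Zfp322a ChIP at a Benjamini-Hochberg adjusted p under 0.05 in a two-sided exact conditional binomial test, adjusted over the 16368 genes with at least 10 reads, among them all 50 signalling genes. A putative binding site was a stretch where Zfp322a reads, each extended to 300 bp, piled up to a height of 9 or more and their highest point exceeded the highest point of IgG anywhere in the same stretch by a factor of 3 or more. These are the height and fold criteria of the study; its Mann-Whitney U test on read strands was not used here. Heights of a site or stretch are given below as its highest Zfp322a against its highest IgG height, which need not lie at the same base.

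Of the 50 signalling genes, 4 were called higher in Zfp322a ChIP, which were *Axin1*, *Gsk3a*, *Map2k1* and *Bmpr1a*. This share of 8% stood beside 5.34% of all genes tested. With the libraries scaled to the reads of all TSS windows, 1 of the 50 was called, beside 0.507% of all genes. With each gene set against its own flanks, 0 were called, beside 0.739% of all genes. None of the 50 was called lower, against 0.0733% of all genes. A putative binding site overlapped a TSS window of 8 of the 50 (16%), beside 12.0% of all 22359 protein-coding genes. That share includes genes with fewer than 10 reads, whereas all 50 signalling genes had at least 10. Among the genes tested, it was 19.5% and 19.3% in the 2 of 10 classes richest in GC, which hold 28 of the 50. A deposited peak region overlapped a TSS window of 3 of the 50, *Stat3*, *Axin1* and *Gsk3a*, beside 3.24% of all 22359 genes. The deposited regions come from the authors' own peak detection but are far fewer than the binding sites that the paper reports. A gene without a deposited region may therefore still have one of the published sites. The shares of called genes and of genes with a site thus lay near those of all protein-coding genes.

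The median fold of the 50 genes was 1.25, and the median of all genes tested was 1.40; with narrower windows of -500 to +500 bp these were 1.51 and 1.49, so the order of the medians depended on the window. A fold above 1 was found at 37 of the 50 (74.0%), beside 74.2% of all genes, so that a fold slightly above 1 was the common state of a promoter in these libraries. The interval lay above 1 at 10 genes (20%), beside 16.6% of all genes. The signalling genes had a median of 18.5 Zfp322a and 13.5 IgG reads in the window, and all genes tested had 16 and 11. By pathway, the median fold was 1.30 for LIF, 1.49 for Wnt, 1.24 for FGF and 0.968 for BMP/Nodal. The folds of the BMP/Nodal genes were above 1 at 8 of 16, and those of the Wnt genes at 16 of 18. The spread inside each pathway was wider than the differences between the medians, with the BMP/Nodal genes running from 0.550 to 8.10 and the Wnt genes from 0.882 to 4.44.

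**Figure D1:**
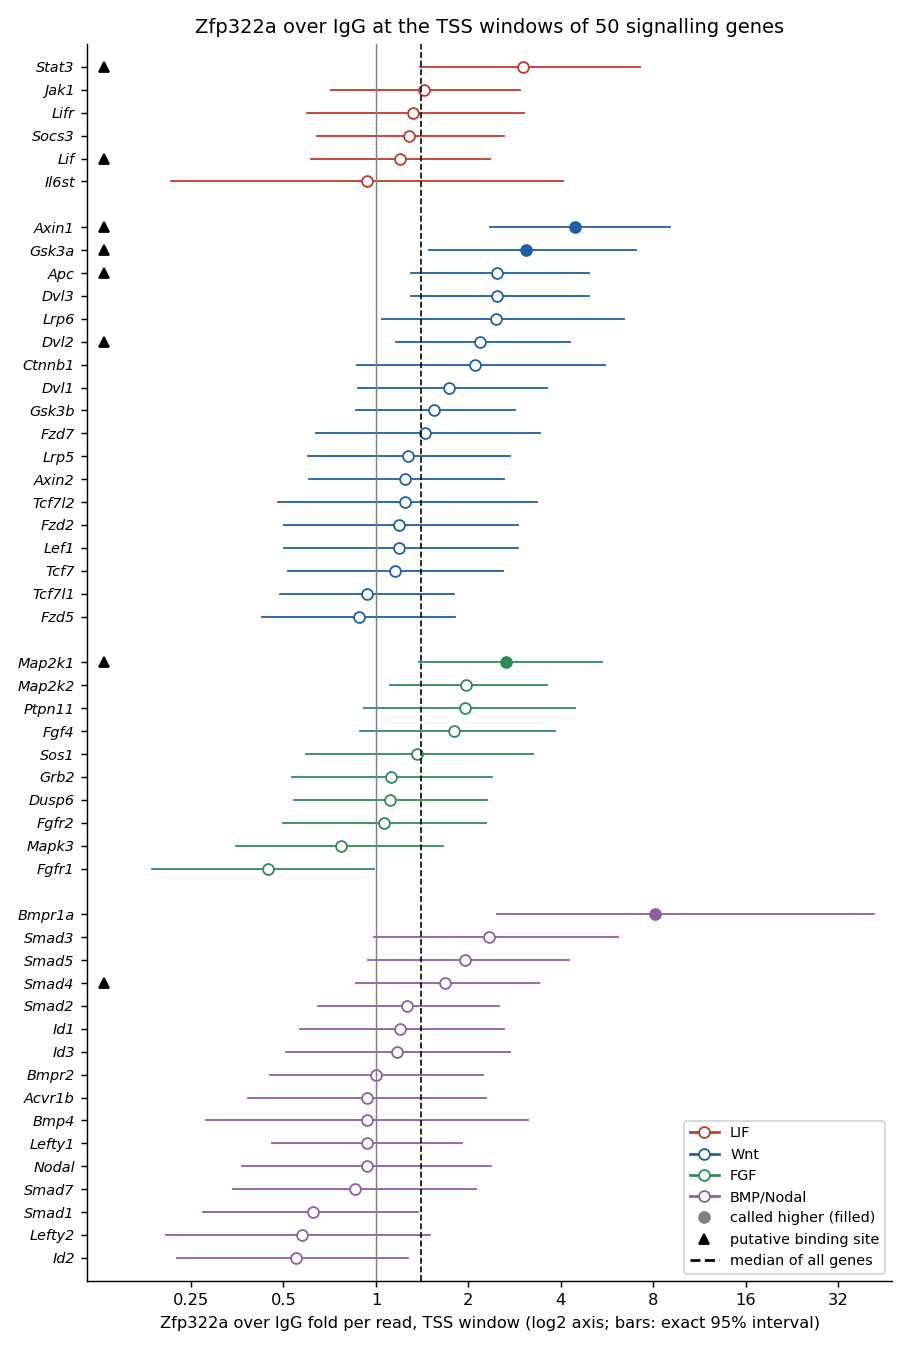
Fold per read of Zfp322a over IgG in the TSS window of each of the 50 genes, by pathway, on a log2 axis, with the exact 95% interval for counting error. Filled circles mark the 4 called genes, triangles the 8 genes with a putative binding site, and the dashed line the median of all genes tested (1.40), which lies inside most of the intervals.

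In the Wnt pathway *Axin1* and *Gsk3a* were called. *Axin1*, the scaffold of the destruction complex, had 57 Zfp322a and 12 IgG reads around its TSS at 26275631 on chromosome 17 (plus strand). Its fold was 4.44 (interval 2.35 to 9.09, adjusted p = 5.0e-05 in the exact test), which placed it 322nd from the top among all genes tested. No other signalling gene had more Zfp322a reads. Its site, chr17:26275778-26276332, spans one of the TSSs of *Axin1*, at 26275895, has its top in an intron of the gene, rose to 29 Zfp322a reads against 3 IgG reads, and was higher than 98.7% of the 3875 sites of the genome. Forward and reverse Zfp322a reads, 23 and 34 in number, had medians 188 bp apart with the forward reads first, in the order of reads at the ends of fragments. The 4 TSSs near the site had folds of 4.44 to 5.42, whereas the internal TSS at 26280292 had 3 Zfp322a and 4 IgG reads. The excess thus lay at the 5′ TSSs of the gene and not at the internal one.

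*Axin1* was also among the loci for which the study designed ChIP-qPCR primers. The forward primer gctggtgagtagtgggagc and the reverse primer cttggatctcaggtctccctac enclose chr17:26275983-26276181, an amplicon of 199 bp in the intron with its middle 451 bp downstream of the TSS. It lies within the site described above. The authors chose the locus as a peak from the same reads, so that the read excess there is no independent evidence for it.

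*Gsk3a*, one of the kinases that phosphorylate β-catenin, had 33 Zfp322a and 10 IgG reads around its TSS at 26022870 on chromosome 7 (minus strand). The fold was 3.08 (interval 1.48 to 7.01, adjusted p = 0.0280 in the exact test). The call was lost in 5 of 11 alternative settings. In the window from -500 to +500 bp the fold was 2.92 (adjusted p = 0.0934 in the exact test). With the libraries scaled to the TSS windows the fold of *Gsk3a* was 2.17 (adjusted p = 0.384 in the exact test). Its site, chr7:26022597-26023017, rose to 19 against 4 reads at 105 bp downstream of the TSS, in the 5′ UTR. *Apc*, the large scaffold that recruits β-catenin to the complex, had 37 Zfp322a and 14 IgG reads and a fold of 2.47 (interval 1.30 to 4.94, adjusted p = 0.0528 in the exact test). It missed the threshold although it carried a site, which rose to 13 Zfp322a against 4 IgG reads at the TSS, in an intron of the neighbouring gene *Gm10548*. Reads of *Apc* and *Gm10548* could not be assigned to one gene or the other.

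The other kinase of the complex, *Gsk3b*, had 33 Zfp322a reads, as many as *Gsk3a*, but 20 IgG reads. Its fold of 1.54 (interval 0.859 to 2.83) had an interval that held 1 and overlapped that of *Gsk3a*. *Axin2*, a paralog of *Axin1* and itself a target of Wnt signalling, had 20 against 15 reads and a fold of 1.25. Across the 5 genes of the destruction complex the median fold was 2.47, beside 1.40 over all genes, and 2 of the 5 were called, beside 5.34% of all genes. With the libraries scaled to the TSS windows, only *Axin1* of the 5 was called, beside 0.507% of all genes. The complex was not among the families planned for description, and a group of 5 genes allows no more than this description. β-catenin itself (*Ctnnb1*) had 18 against 8 reads and a fold of 2.10, with an interval of 0.870 to 5.59.

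The Dishevelled genes, which relay the signal from the receptor to the destruction complex, had a median fold of 2.18 and none was called. *Dvl2* had 35 Zfp322a and 15 IgG reads (fold 2.18, interval 1.16 to 4.30, adjusted p = 0.112 in the exact test). It carried a site, chr11:69813994-69814451, of 15 against 5 reads, with its top in the 5′ UTR, 101 bp downstream of the TSS, where IgG had 3 reads. *Dvl3* had 37 against 14 reads, the same counts as *Apc*, and a stretch of 14 against 5 reads, which gave a ratio of 2.80 and so no site, although IgG had 2 reads at the top itself. *Dvl1* had 26 against 14 reads and a fold of 1.73.

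The Frizzled receptors and the transcription factors of the Wnt pathway had folds nearer to 1. The receptor genes *Fzd2*, *Fzd5* and *Fzd7* had 14, 17 and 17 Zfp322a reads against 11, 18 and 11 IgG reads. *Fzd5* had the lowest fold of the pathway, 0.882 (interval 0.427 to 1.81, adjusted p = 0.959 in the exact test). Of the co-receptors, *Lrp6* had 21 against 8 reads (fold 2.45) and *Lrp5* 19 against 14 (fold 1.27). The TCF/LEF factors, which carry β-catenin to its target genes, had a median fold of 1.17. They ran from 0.934 at *Tcf7l1*, the repressor of the family in ES cells, with 21 reads in each library, to 1.25 at *Tcf7l2*. The window of *Tcf7l2* was that of an internal TSS at 55970000 on chromosome 19, with 12 against 9 reads, and at its first TSS, at 55816300, it had 10 against 5, a fold of 1.87 (interval 0.582 to 6.97). *Lef1* likewise had 14 against 11 reads in the window used and 10 against 4 at its first TSS, a fold of 2.34 (interval 0.674 to 10.2). None of the 4 had a site, and none had an interval above 1 at the TSSs given here. Of the 29 signalling genes with more than 1 TSS, 15 had folds that differed by over 1.5 times between their TSSs.

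**Figure D2:**
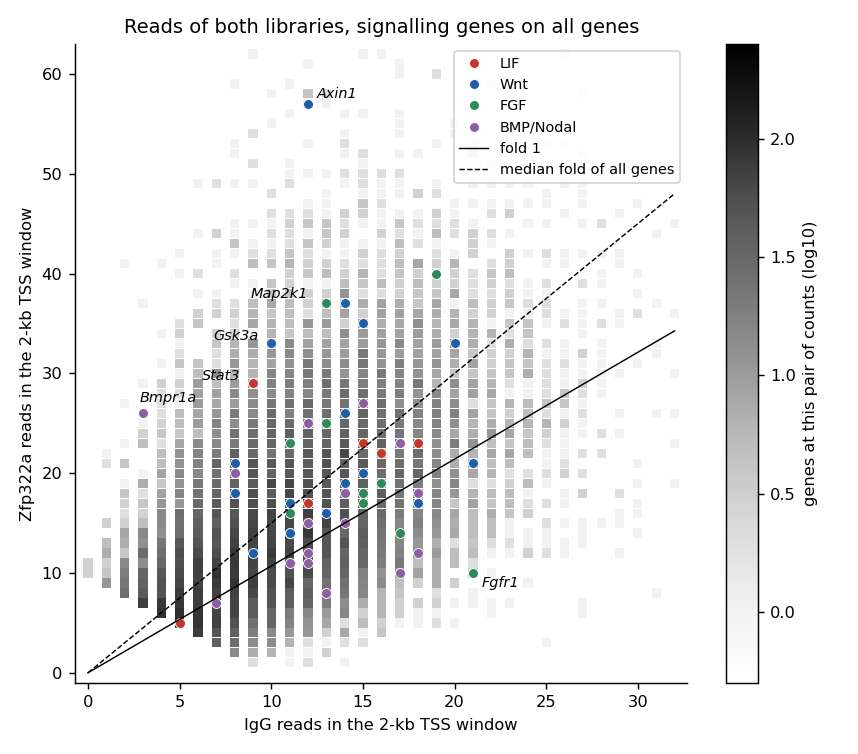
Zfp322a reads (vertical axis) against IgG reads (horizontal axis) in the 2-kb TSS window for the 50 genes, coloured by pathway, on the 16368 genes tested in grey (darker squares hold more genes on a log10 scale; genes beyond the axes are not drawn). *Axin1* at 57 against 12 reads and *Bmpr1a* at 26 against 3 lie at the edge of the cloud, and most other signalling genes lie within it.

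In the LIF pathway no gene was called. *Stat3*, the transcription factor on which LIF signalling depends, came closest, with 29 Zfp322a and 9 IgG reads around its TSS at 100800694 on chromosome 11 (minus strand). Its fold was 3.01 (interval 1.39 to 7.23, adjusted p = 0.0523 in the exact test), and a region deposited by the authors, chr11:100800696-100801263, overlaps its window. The site in this region, chr11:100800895-100801170, rose to 12 against 3 reads and has its top at -221 bp of the nearest TSS, outside annotated genes. In the window from -500 to +500 bp the fold was 4.90 and *Stat3* was called (adjusted p = 0.0275 in the exact test).

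*Lif*, the ligand, had 23 against 18 reads at an internal TSS at 4167098 on chromosome 11. The fold there was 1.19 (interval 0.616 to 2.35, adjusted p = 0.895 in the exact test). At its first TSS, at 4157560, *Lif* had 17 against 17 reads, a fold of 0.934 (interval 0.448 to 1.95). The site of *Lif*, at -309 bp of the internal TSS, was a single base at which the Zfp322a height touched 9 reads against 2. It is the lowest that the criteria admit. Of the receptor genes, *Lifr* had 17 against 12 reads (fold 1.32) and *Il6st* 5 against 5. *Il6st* had the fewest Zfp322a reads of the 50 genes and the lowest fold of the pathway (0.934, interval 0.215 to 4.06, adjusted p = 1 in the exact test), so that small differences at this gene were not detectable at this depth. An internal TSS of *Lifr* at 7104353 on chromosome 15 had 14 against 2 reads, a fold of 6.54 with an interval of 1.50 to 59.3. *Jak1* had 23 against 15 reads and *Socs3*, the feedback inhibitor, 22 against 16, with folds of 1.43 and 1.28.

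In the FGF pathway *Map2k1*, which encodes the kinase Mek1, was called. It had 37 Zfp322a and 13 IgG reads around its TSS at 64101438 on chromosome 9 (minus strand), a fold of 2.66 (interval 1.38 to 5.45, adjusted p = 0.0380 in the exact test). Its site, chr9:64101311-64101659, rose to 16 against 3 reads, with its top at -54 bp of the TSS, outside annotated genes, where IgG had 1 read. The flanks of *Map2k1*, 1 to 10 kb to either side of the TSS, were also higher in Zfp322a, with 61 against 29 reads, a fold of 1.96. Relative to its flanks the fold of *Map2k1* was 1.35, and the call was lost (adjusted p = 0.962 in Fisher's exact test). In the window from -500 to +500 bp the fold of *Map2k1* was 3.20 and the call was also lost (adjusted p = 0.0624 in the exact test). Its paralog *Map2k2* (Mek2) had the most reads of the pathway in Zfp322a, 40 against 19 in IgG, with a fold of 1.97 (interval 1.11 to 3.60) and a stretch of 15 against 9 reads, which gave no site.

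Upstream of the kinases the counts were closer. *Fgf4*, the ligand, had 25 against 13 reads (fold 1.80), the phosphatase gene *Ptpn11* 23 against 11 (fold 1.95), the adaptor gene *Grb2* 18 against 15 (fold 1.12) and *Sos1*, which loads Ras with GTP, 16 against 11 (fold 1.36). All of these intervals held 1. *Mapk3* (Erk1) had 14 against 17 reads and *Dusp6*, a phosphatase of Erk and a target of the pathway, 19 against 16.

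*Fgfr1*, the main FGF receptor of mouse ES cells, had the lowest fold of the 50 genes, with 10 Zfp322a and 21 IgG reads at its internal TSS at 26642753 on chromosome 8. The fold was 0.445 (interval 0.187 to 0.987, adjusted p = 0.206 in the exact test), so it was not called. At the first TSS of the gene, at 26624126, the counts were 10 against 5, a fold of 1.87 (interval 0.582 to 6.97). The fold of *Fgfr1* therefore stood on different sides of 1 at different TSSs of the gene. The annotation holds more than 1 gene identifier for *Fgfr1*, and the one with the most transcripts was used. *Fgfr2* had 17 against 15 reads at a TSS of 1 transcript, at 140315033 on chromosome 7. This window also holds a TSS of *Ctbp2*, so that its reads belong to either gene. At 137405371, the TSS of 14 *Fgfr2* transcripts, the counts were 5 against 7, a fold of 0.667 (interval 0.167 to 2.44).

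In the BMP/Nodal pathway *Bmpr1a*, a type I BMP receptor, had the highest fold of the 50 genes. It had 26 Zfp322a and 3 IgG reads in chr14:35314873-35316873, a fold of 8.10 (interval 2.48 to 41.8, adjusted p = 0.00192 in the exact test), the 63rd highest of all genes tested. The width of the interval comes from the 3 IgG reads. The Zfp322a reads were spread over the window, as 13 forward and 13 reverse reads with medians 437 bp apart, and their height stayed at 8 reads, so that no site was found. Another TSS of the gene, at 35316527, had 19 against 2 reads, and the one at 35273742 had 0 against 1. The flanks were at 23 against 18 reads, a fold of 1.19. Relative to its flanks the fold of *Bmpr1a* was 6.78 and the call was lost (adjusted p = 0.140 in Fisher's exact test), as it was with the libraries scaled to the TSS windows (fold 5.71, adjusted p = 0.0876 in the exact test). *Bmpr2*, the type II receptor, and *Acvr1b*, a receptor for Nodal and activin, had 15 against 14 and 12 against 12 reads. *Acvr1b* had a stretch of 11 against 4 reads, a ratio of 2.75 and so no site; IgG had 3 reads at the top, and with a minimum height of 11 reads it had a site.

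The 6 Smad genes had a median fold of 1.47, with 3 above the median of all genes. *Smad4*, the common partner of both branches, had 27 against 15 reads (fold 1.68, interval 0.863 to 3.40, adjusted p = 0.419 in the exact test) and a site of 22 bp that rose to 10 against 2 reads. Of the Smads that transduce Nodal signals, *Smad3* had 20 against 8 reads (fold 2.34) and *Smad2* 23 against 17 (fold 1.26). Of those that transduce BMP signals, *Smad5* had 25 against 12 (fold 1.95) and *Smad1* 12 against 18 (fold 0.623). The inhibitory *Smad7* had 11 against 12. None of the 6 intervals lay on one side of 1.

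Ligands and targets of the pathway had folds between 0.550 and 1.20. *Bmp4* had 7 and *Nodal* 11 reads in each library, a fold of 0.934 for both. The Nodal antagonists *Lefty1* and *Lefty2* had 18 against 18 and 8 against 13. Among the Id genes, which block differentiation downstream of BMP, *Id1* had 18 against 14, *Id3* 15 against 12 and *Id2* 10 against 17 reads. *Id2* had the lowest fold of the pathway, 0.550 (interval 0.225 to 1.27, adjusted p = 0.502 in the exact test). Read against their roles in all 4 pathways, the 12 receptors and co-receptors had a median fold of 1.12 and the 4 ligands 1.06, without a call except *Bmpr1a*.

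**Figure D3:**
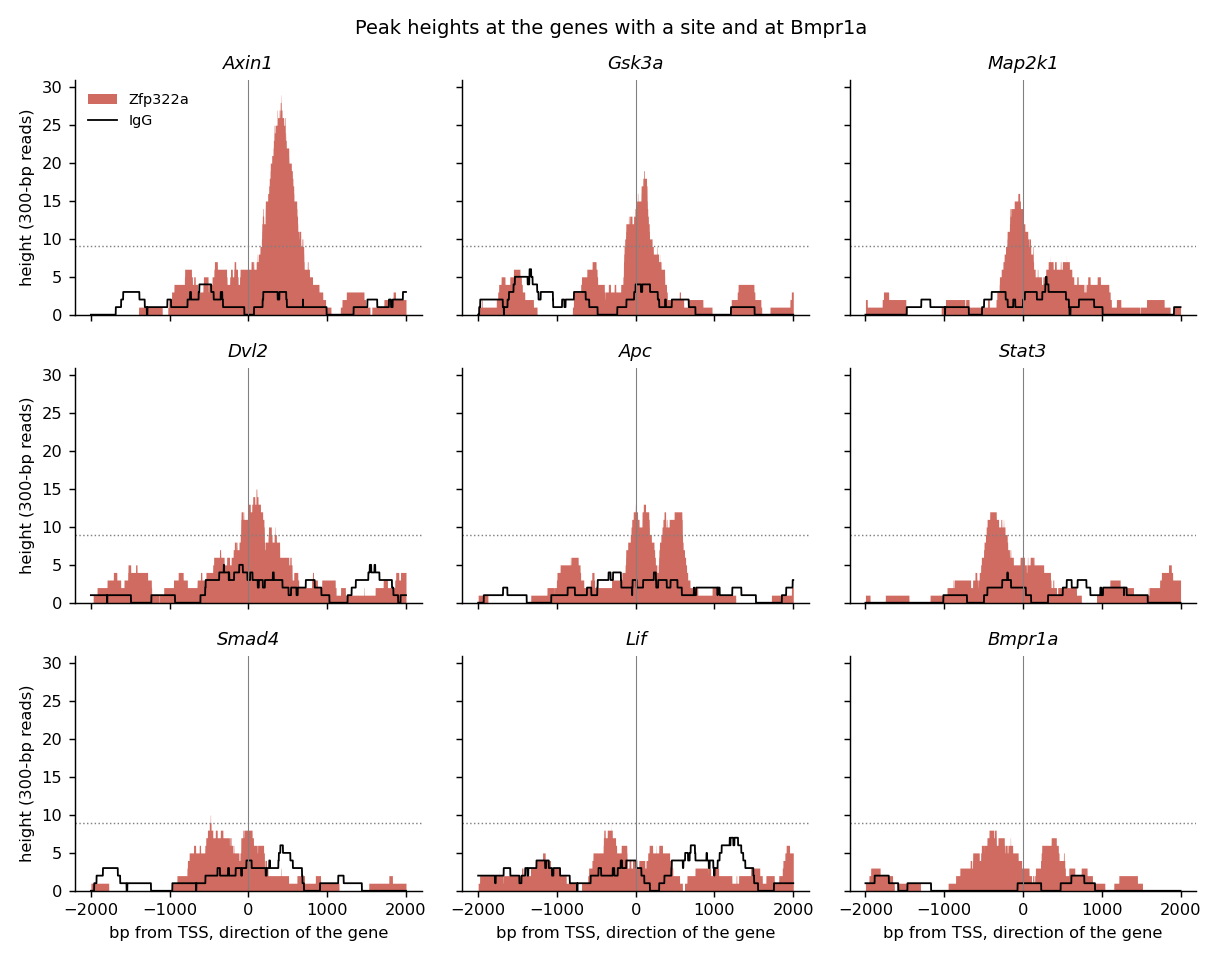
Height of reads extended to 300 bp in Zfp322a (red area) and IgG (black line) against the distance from the TSS in the direction of the gene, for the 8 genes with a site and for *Bmpr1a*; the dotted line is the minimum height of 9 reads. *Axin1* has one peak of 29 reads downstream of the TSS, *Apc* has more than one summit, the sites of *Smad4* and *Lif* barely pass the line, and *Bmpr1a* stays under it.

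The 8 sites ran from 29 reads down to the minimum of 9. The heights at *Axin1*, *Gsk3a*, *Map2k1* and *Dvl2* were 29, 19, 16 and 15 reads, higher than 84.2% or more of all sites, and those at *Apc*, *Stat3*, *Smad4* and *Lif* were 13, 12, 10 and 9. With a minimum fold of heights of 5 in place of 3, 3 of the 50 genes had a site, beside 4.78% of all genes. A height of at least 9 reads was reached without a site at 10 further genes, among them *Map2k2*, with 15 against 9 reads in the stretch. Another was *Fgfr2*, with 11 against 7 in the window that also holds a TSS of *Ctbp2*. The tops of the 8 sites lay between -482 and +409 bp of the TSS by which the gene was represented. In the TSS windows of these 8 genes the forward Zfp322a reads came first by their medians, except at *Smad4* and *Lif*. There the reverse minus the forward median was -95 and -248 bp, and at *Dvl2* it was 8.5 bp.

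The sequences at the top of the sites, or at the nearest stretch outside exons, are shown so that the base composition and motifs at the sites can be read. Those of *Apc* and *Smad4* are not shown here. They are from mm9, 5′ to 3′ on the strand of the gene, with matches to any of the motifs searched in capitals. These were the GC box GGGCGG, the ETS core CCGGAAG, the STAT motif TTCNNNGAA, the TCF/LEF motif CTTTGAT and the YY1 motif AAGATGGCG, each on both strands. At *Axin1* (chr17:26275987-26276146, plus strand, intron), *Map2k1* (chr9:64101439-64101598, minus strand, outside genes), *Stat3* (chr11:100800995-100801154, minus strand, outside genes) and *Lif* (chr11:4166639-4166798, plus strand, intron) the stretch contains the top of the site. At *Gsk3a* (chr7:26022871-26022985, minus strand) and *Dvl2* (chr11:69813978-69814096, plus strand) it is the part just upstream of the TSS.
Axin1: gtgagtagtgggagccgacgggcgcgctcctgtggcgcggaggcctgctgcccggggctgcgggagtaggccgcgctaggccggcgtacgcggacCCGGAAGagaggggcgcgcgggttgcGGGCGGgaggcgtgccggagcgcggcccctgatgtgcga
Gsk3a: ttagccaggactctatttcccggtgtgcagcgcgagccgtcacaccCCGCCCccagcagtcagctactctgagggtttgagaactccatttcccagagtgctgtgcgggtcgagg
Map2k1: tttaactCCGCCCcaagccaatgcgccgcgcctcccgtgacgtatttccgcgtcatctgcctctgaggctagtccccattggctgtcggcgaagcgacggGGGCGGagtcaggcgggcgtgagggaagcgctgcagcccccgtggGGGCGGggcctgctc
Dvl2: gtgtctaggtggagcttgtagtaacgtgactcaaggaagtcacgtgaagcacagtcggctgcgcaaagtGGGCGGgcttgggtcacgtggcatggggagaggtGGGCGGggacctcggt
Stat3: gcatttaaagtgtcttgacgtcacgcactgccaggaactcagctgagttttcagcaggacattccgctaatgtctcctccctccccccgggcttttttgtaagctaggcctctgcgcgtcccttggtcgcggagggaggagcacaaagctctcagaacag
Lif: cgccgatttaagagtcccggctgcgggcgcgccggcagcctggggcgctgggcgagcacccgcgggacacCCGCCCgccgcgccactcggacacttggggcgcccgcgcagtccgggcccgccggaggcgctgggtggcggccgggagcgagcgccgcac

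The GC content of these stretches ran from 55.6% at *Stat3* to 81.3% at *Lif*. GC boxes were found in 5 of the 6, with 3 at *Map2k1* and 2 at *Dvl2*, and an ETS core at *Axin1*. No motif was matched at *Stat3*. In a window of 300 bp from -250 to +49 of the TSS, the GC box was present at 35 of the 50 genes (70.0%), beside 45.5% of all protein-coding genes. It was present at 94 of the 129 other genes of the same pathways described below (72.9%), so the share was not particular to the 50. The ETS core was present at 4 genes (8%, beside 11.1%), which were *Axin1*, *Bmp4*, *Dvl3* and *Ptpn11*. The STAT motif was found at *Socs3* (1 gene, 2%, beside 7.73%), the TCF/LEF motif at *Axin2* (2%, beside 3.25%) and the YY1 motif at *Apc* (2%, beside 1.97%). These letters describe the windows and say nothing of which protein is there.

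The windows of the signalling genes were rich in GC, with a median of 59.3% against 53.9% over all genes tested, and 28 of the 50 fell in the upper 2 of 10 classes of GC content. Across the 50 genes, Spearman's rho between fold and GC content was 0.308, and across the 16368 genes it was 0.0129. The reads of the libraries had a rho of 0.149 with each other over the 50 genes and of 0.519 over all genes. These are descriptions across genes of the same libraries, which share depth and base composition and are not independent replicates.

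Around the TSS, the signalling genes had more reads than the average gene in both libraries. From -500 to -1 bp they had 12.8 Zfp322a and 7.24 IgG reads per kb and gene, where all 22359 protein-coding genes had 8.10 and 4.98. All genes of this paragraph include those with fewer than 10 reads. Beside the genes tested the medians of the whole window were closer, with 18.5 and 13.5 reads against 16 and 11. The fold over the 50 genes together from -500 to -1 bp was 1.65 (interval 1.37 to 1.99), beside 1.52 over all genes. Without the 4 called genes it was 1.56 (interval 1.29 to 1.90). From 0 to +499 bp the fold was 1.46, beside 1.52 over all genes, and without the 4 called genes it was 1.26. Called genes were taken out of the 50 only, so the values without them are not comparable with those of all genes. From -3000 to -1001 bp the signalling genes still had a fold of 1.31 (interval 1.13 to 1.51), above the 1.09 of all genes, whereas from +1000 to +2999 bp they had 1.12 beside 1.09.

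**Figure D4:**
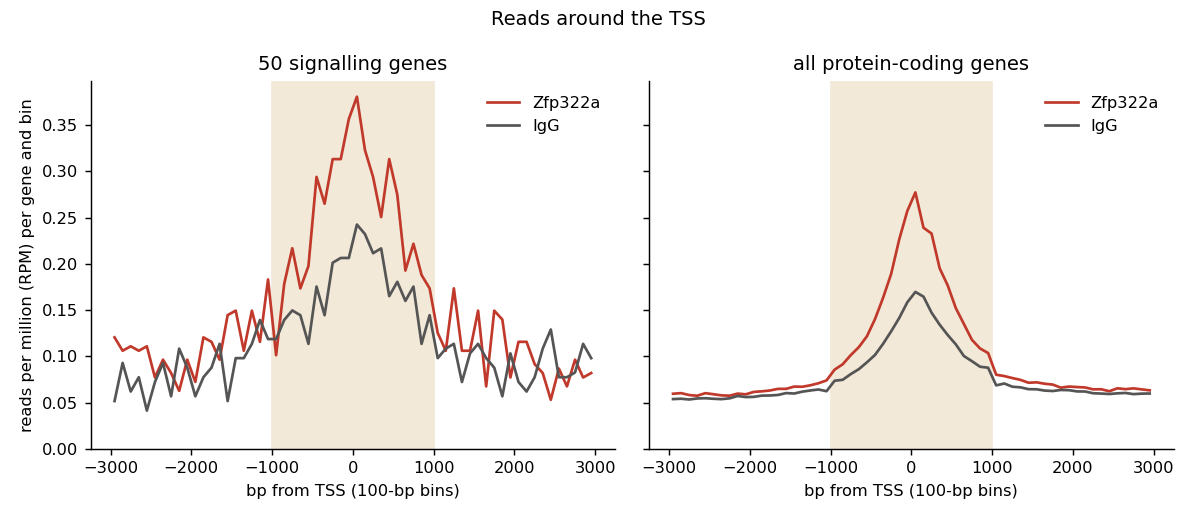
Reads scaled to the library total (RPM), per gene and per 100-bp bin, against the distance from the TSS for the 50 signalling genes (left) and all protein-coding genes (right), in Zfp322a (red) and IgG (grey); the shaded area is the window that was counted. Both libraries rise at the TSS and Zfp322a rises further. In the right panel the reads step up at the edges of the shaded area, and in the left panel they do not at the upstream edge. Each gene was represented by its window with the most reads, and whether this made the step was not tested.

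Of 129 other genes of the same pathways, listed by name, 126 had at least 10 reads, and 1 was called higher (0.794%, beside 5.34% of all genes) and 0 lower (beside 0.0733%). The median fold of these genes was 1.39, beside 1.40 over all genes. As with the 50 genes, the BMP/Nodal list had the lowest median, 1.17, beside 1.48 for LIF, 1.43 for Wnt and 1.40 for FGF.

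How far the calls depend on the scale was examined because promoters as a class had more reads in Zfp322a. Summed over all TSS windows, the ratio of the libraries was 1.42 times that of the whole libraries, and 20 of the 50 genes had a fold above this ratio. With the libraries scaled to the TSS windows, *Axin1* was the only one of the 50 to be called, beside 0.507% of all genes, and the median fold of the signalling genes was 0.885 beside 0.988. With each gene set against its own flanks, *Axin1* had a fold of 3.37 (adjusted p = 0.0772 in Fisher's exact test) and none of the 50 was called, beside 0.739% of all genes. *Axin1* was called in 10 of 11 alternative settings, *Bmpr1a* in 8, *Gsk3a* in 6 and *Map2k1* in 5. *Dvl3* was called in 3 of them, and *Stat3* and *Apc* in 2 each.

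**Figure D5:**
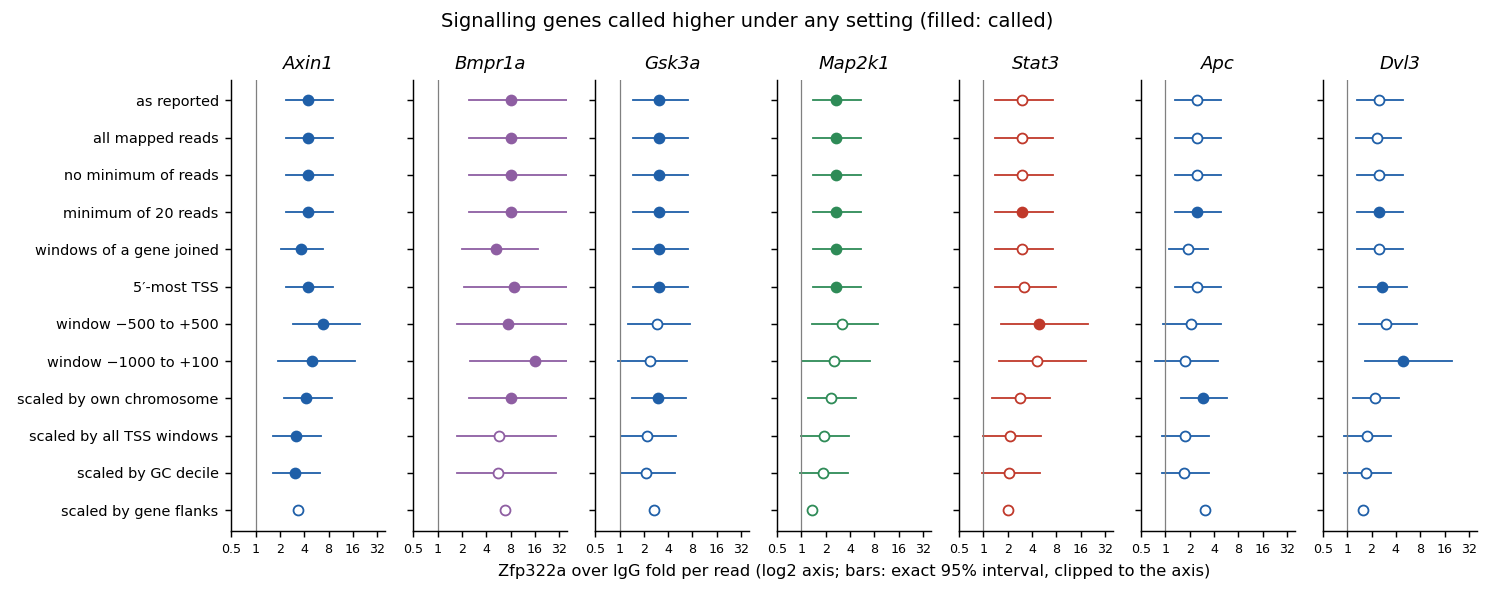
Fold per read of Zfp322a over IgG on a log2 axis for the 7 signalling genes called under any setting, with a row for each setting; bars are exact 95% intervals clipped to the axis, no interval was computed for the scaling by gene flanks, and filled circles are called. *Axin1* is filled except for the flanks, whereas *Stat3*, *Apc* and *Dvl3* lie to the right of 1 throughout and are filled in a few settings.

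The chromosomes did not share one ratio of the libraries. On chromosome 8, which holds *Fgfr1* and *Smad1*, the ratio of Zfp322a to IgG reads over the whole chromosome was 0.760 of that of the libraries, and on chromosome 18, which holds *Apc*, *Smad2*, *Smad4* and *Smad7*, it was 0.843. On chromosome 9, with *Map2k1*, it was 1.15. With each gene scaled to the reads of its own chromosome, 4.88% of all genes were called. *Apc* had a fold of 2.93 and was called (adjusted p = 0.0151 in the exact test), *Map2k1* had 2.32 and was not (adjusted p = 0.0938), and *Fgfr1* had 0.585.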

How the data were processed

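E14 ES cells were profiled by ChIP-seq, with 1 library for the anti-ZNF322 antibody and 1 for IgG. The submitters' processing notes name CASAVA 1.4, BWA and Partek 6.6, and the reads were mapped by the authors to mm9. The mapping files deposited by the authors list each read with its position, strand and mapping quality score. No pair of reads within a library shared 5′ position and strand. The deposited file of reads in numbered peak regions was used for the Zfp322a library, with 754 distinct intervals, and that of IgG was not used.

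Reads with a mapping quality score of at least 25 were counted around 46015 protein-coding TSSs (GENCODE vM1) with numpy 2.4.6 and pandas 2.3.3 under Python 3.11.15. Tests were run with scipy 1.17.1 and numpy. The genome sequence was indexed with samtools 1.23.1 and read with pysam 0.24.0. Figures were drawn with matplotlib 3.10.9. Folds were tested with a two-sided exact conditional binomial test given the library totals, with Benjamini-Hochberg adjustment over all genes with at least 10 reads. Neighbouring stretches with gaps of up to 300 bp counted as 1 site, and IgG heights of 0 were set to 1. The test and the search for sites were tested on simulated data. The genes, the lists of other pathway genes and the tests were chosen with earlier results of these data known.

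Genes named with full values were those called, those with a site or a deposited region, and the highest and lowest fold of each pathway. Other genes were given by reads and fold where a family or a step of a pathway is described, some of them (*Map2k2*, *Gsk3b*, *Ctnnb1*, *Lrp6* and the internal TSSs of *Lifr* and *Fgfr1*) after their values were seen. Alternatives covered the mapping quality, the window, the choice of TSS, the minimum of reads, the scaling, and the height, fold and fragment size of sites. The scaling by chromosome and the count outside chromosomes 8 and 18 were chosen after seeing the data. The groups of destruction complex, receptors and ligands were not among the planned families. Of 129 other pathway genes, 3 were found in the annotation under an older symbol. One called gene among them is not reported here. The microarray, qPCR and reporter experiments of the study were not analysed here.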

Additional observations from a re-analysis of the deposited data

How the results depend on the processing

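The number of signalling genes called was 4, beside 5.34% of all genes. It was 3 to 5 (2.65% to 5.33% of all genes) with all mapped reads, with windows of -500 to +500 or -1000 to +100 bp, with joined windows, with the 5′-most TSS or with no minimum of reads, and 7 with a minimum of 20 reads, where *Apc*, *Dvl3* and *Stat3* were added and the share of all genes was 8.59%. It was 1 when scaled by all TSS windows, 1 when scaled by windows of like GC content, and 0 when scaled by the gene flanks (0.507%, 0.464% and 0.739% of all genes). The median fold of 1.25 became 0.885 when scaled by all TSS windows and 0.879 by windows of like GC content, as the construction of these scalings centres promoters near 1. It was 1.16 relative to the flanks (all genes 1.27), 1.43 from -1000 to +100 bp (all genes 1.48) and 1.40 at the 5′-most TSS (all genes 1.40), and it turned from below to above the median of all genes from -500 to +500 bp (1.51 beside 1.49) and with joined windows (1.37 beside 1.35). In settings chosen after seeing the data, 4 genes were called with each chromosome scaled by itself, *Apc* in place of *Map2k1*, beside 4.88% of all genes. The number of signalling genes with a site was 8, beside 12.0% of all 22359 genes, a share that includes genes with fewer than 10 reads. It was 3 with a fold of heights of at least 5 (4.78% of all genes) and 3 in deposited regions (2.98%). It stayed 8 with all mapped reads (12.5%) and in the windows of -500 to +500 bp (11.1%) and -1000 to +100 bp (9.92%). It was 7 with a minimum height of 11 reads (7.66%), with *Acvr1b* added, and 8 at a fragment size of 200 bp (9.29%), with *Dvl3* and *Gsk3b* added, while *Lif* and *Smad4* were lost in both. It was 7 with IgG heights scaled to the Zfp322a library total (9.84%), where the site of *Dvl2*, whose ratio was 3, was lost. The number of other pathway genes called, 1, was 2 in the window of -500 to +500 bp and with a minimum of 20 reads, and 0 in the window of -1000 to +100 bp and under each of the scalings by TSS windows, GC content, flanks and own chromosome. No paired analysis was possible because each antibody had 1 library.

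At a depth of about 14 IgG reads per window, a fold of 2.47 (37 against 14 reads) lay at the threshold, so that smaller folds were not detectable at this depth. IgG heights of 2 to 5 reads set the fold of heights at each site.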

Other observations

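Among the 129 other pathway genes, 21 (16.3%) had a putative binding site at a TSS window, beside 12.0% of all protein-coding genes. Of the 129, 126 had at least 10 reads, whereas the 12.0% includes genes with fewer. Among the genes tested, the share was 19.5% and 19.3% in the 2 of 10 classes richest in GC. The 21 genes were spread over the lists, with 5 of 22 in the LIF list, 7 of 39 in the Wnt list, 6 of 35 in the FGF list and 3 of 33 in the BMP/Nodal list. Sites lay at *Tfcp2l1*, a transcription factor downstream of Stat3 with 20 Zfp322a and 8 IgG reads, and at *Ctbp1* and *Ctbp2*, co-repressors with 26 against 14 and 28 against 19 reads. These 3 were the ones at which a region deposited by the authors overlapped the window. In the FGF list *Rasa1*, which turns Ras off, had 24 against 9 reads and *Frs2*, the docking protein of the FGF receptors, 17 against 11, each with a site and without a call. *Znrf3*, a ligase that removes Frizzled receptors, had 22 against 6 reads (fold 3.43, adjusted p = 0.0653 in the exact test) and no site. The genes of this paragraph other than those with a deposited region were chosen after their values were seen.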
